A study of Homo sapiens with 6 samples.

Results

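Transcripts of the class I histone deacetylases HDAC1, HDAC2, HDAC3 and HDAC8, and of the corepressor subunits NCOR1, RCOR1, SIN3A, SIN3B and MTA1, were compared between WM164 cells transfected with an HDAC8 expression vector and cells transfected with its empty vector (EV). The 9 genes were chosen by symbol, as the class I enzymes and the main subunits of the complexes they work in, and all 9 were found among the 60504 genes of the deposited table. WM164 is an established human melanoma line that carries BRAFV600E, so every library in both groups has that mutation. Each group held 3 RNA-seq libraries, numbered as biological replicates. Transfected cells of both groups were kept in hygromycin, and whether they were clones or pools, or separate transfections, is not given in the sources used here, so the p-values measure only the spread between these libraries.

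Class I histone deacetylases remove acetyl groups from lysines of histones and other nuclear proteins. HDAC1 and HDAC2 are close paralogs that work inside the NuRD, SIN3, CoREST and MiDAC complexes, and HDAC3 works with the corepressor NCOR1. Those enzymes are active when bound to their corepressor, whereas HDAC8 is active as a free protein and deacetylates the cohesin subunit SMC3.

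None of the 9 genes was called between the groups. A call required an adjusted p under 0.05 (Wald test of DESeq2, Benjamini-Hochberg adjustment over all genes tested) and an absolute log2 fold change of 0.58 or more, and 11.0% of the 21021 genes with an adjusted p met both. The share was 14.0% among genes that averaged 50 normalized counts or more, as all 9 did. At an unadjusted p under 0.05 the 9 genes gave 2, NCOR1 and RCOR1, where 23.7% of all genes did so. Among the 14440 genes with that average, 4222 did so. By the same adjusted rule limma-voom and the quasi-likelihood test of edgeR called 0 of the 9, and 0 of the 9 had an unadjusted p under 0.05 with either tool.

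The libraries were similar in depth and differed in other ways. Total counts ran from 34953618 to 42041462 in EV and from 34741083 to 41852045 in the libraries labelled HDAC8. Mitochondrially encoded transcripts took 9.66% to 12.8% of the counts in EV and 4.46% to 7.94% in the libraries labelled HDAC8. Without those transcripts in the fit, 0 of the 9 genes were called. HDAC8 1 stood apart, with a chi-square per degree of freedom over genes of 168 and 112 against HDAC8 2 and 3, where those 2 libraries gave 27.6 and pairs of EV libraries 42 to 51.6. Values that move by over 1.5 times without it are given both ways where they are discussed, except for those of cell type markers, given only with all libraries. Melanocyte markers summed to 244961 to 328761 normalized counts in EV and 137044 to 182218 in the libraries labelled HDAC8, with PMEL holding most of the sum. All 8 of them had counts in both groups. TYRP1 was low, at 62.9, 32.7 and 21.7 in EV and 0.0, 0.0 and 17.4 in the libraries labelled HDAC8. Among them MLANA fell furthest of those called, from 8664.7 ± 366.7 to 303.1 ± 67.8 (SD, n = 3, log2 fold change -4.84, adjusted p = 2.36e-161 by DESeq2), and PMEL (-0.86), TYR (-1.60), DCT (-1.08) and S100B (-0.66) were also called lower. MITF, the master regulator of the lineage, overlapped between groups (-0.20, adjusted p = 0.544 by DESeq2). It had 17824.1, 16257.0 and 17935.2 in EV and 11313.6, 17919.5 and 16095.8 in the libraries labelled HDAC8. HDAC8 1 was thus the lowest library, and HDAC8 2 and 3 lay near or among the EV values. Fibroblast markers summed to 2478.7 to 2894.1 in EV and 1463.0 to 2423.1 in the libraries labelled HDAC8. LUM held most of that sum and DCN was at 0. COL1A1, COL3A1 and LUM had negative log2 fold changes and were not called. PDGFRA was called higher, from 140.4 ± 28.4 to 312.9 ± 71.2 (SD, n = 3, log2 fold change 1.16, adjusted p = 0.0377 by DESeq2). Keratinocyte markers (38.3 to 86.7 against 0.0 to 41.0) and endothelial markers (97.5 to 202.9 against 114.3 to 218.0) were low, with KRT1 and CDH5 at 0. Leukocyte markers summed to 52.3 to 229.5 and 130.0 to 247.8, with PTPRC at 0 in 5 of 6 libraries. CD3E was at 0 in EV and at 78.7, 91.1 and 50.1 in the libraries labelled HDAC8. It was called higher (log2 fold change 8.66, SE 1.55, adjusted p = 1.1e-06 by DESeq2). The part of these differences in the results was not tested. In bulk libraries, fewer cells that carry a transcript and less of it per cell cannot be told apart.

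The promoters of the 4 enzymes are shown as background, and their part in the levels of these transcripts was not tested. Each run is the 250 bases before the transcription start from RefSeq (GRCh38.p14), read 5′ to 3′ on the strand of the gene. Capitals mark the GC box GGGCGG, the core of the site bound by SP1-type factors, on either strand, with overlapping matches both counted.
HDAC1: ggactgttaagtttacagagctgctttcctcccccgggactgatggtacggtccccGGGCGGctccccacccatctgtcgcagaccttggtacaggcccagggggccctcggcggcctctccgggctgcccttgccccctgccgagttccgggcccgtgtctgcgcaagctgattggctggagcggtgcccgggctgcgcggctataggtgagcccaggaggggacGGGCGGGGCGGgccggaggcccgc
HDAC2: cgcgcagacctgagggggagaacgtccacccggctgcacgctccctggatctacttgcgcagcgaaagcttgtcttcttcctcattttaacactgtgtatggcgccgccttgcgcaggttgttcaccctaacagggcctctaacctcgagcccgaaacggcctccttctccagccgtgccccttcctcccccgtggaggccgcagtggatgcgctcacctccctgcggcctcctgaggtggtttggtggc
HDAC3: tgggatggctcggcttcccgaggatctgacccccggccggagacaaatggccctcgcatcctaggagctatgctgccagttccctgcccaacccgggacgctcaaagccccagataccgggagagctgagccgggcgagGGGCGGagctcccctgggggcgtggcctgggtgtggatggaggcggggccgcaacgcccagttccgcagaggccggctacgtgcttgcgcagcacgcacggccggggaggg
HDAC8: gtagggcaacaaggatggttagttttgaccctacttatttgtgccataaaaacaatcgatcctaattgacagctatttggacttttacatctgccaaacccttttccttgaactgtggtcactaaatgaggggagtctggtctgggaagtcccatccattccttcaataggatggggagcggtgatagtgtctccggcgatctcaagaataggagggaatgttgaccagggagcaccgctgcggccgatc

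The windows lie at chr1:32291833-32292082 (HDAC1, plus strand), chr6:113971149-113971398 (HDAC2, minus strand), chr5:141636850-141637099 (HDAC3, minus strand) and chrX:72572844-72573093 (HDAC8, minus strand). The HDAC2 and HDAC8 windows lie inside the GENCODE spans of their genes, since the RefSeq starts are further in. The HDAC1 window held 3 GC boxes, of which a pair overlaps, the HDAC3 window held 1, and the HDAC2 and HDAC8 windows held 0. Among all 35116 promoter windows of this length, 42.6% held the motif. CpG pairs numbered 21, 18, 22 and 7 in the windows of HDAC1, HDAC2, HDAC3 and HDAC8, against a median of 11 over all windows. Of all windows, 43.7% held as few as HDAC8 or fewer. The GC content of the HDAC8 window was 48%, against 63.2% to 71.6% in those of the other enzymes and a median of 58% over all windows.

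HDAC8, the gene on the vector, was measured first. It is annotated at chromosome X, 72329516 to 72573101, minus strand (ENSG00000147099, GRCh38), and its canonical transcript has 11 exons. The EV libraries had 383.8, 404.4 and 478.8 normalized counts and the libraries labelled HDAC8 had 484.8, 445.5 and 473.7. EV 3 lay inside the range of the HDAC8 libraries, so the groups overlapped. The log2 fold change was 0.15 (SE 0.28, adjusted p = 0.856 by DESeq2). A rise in the HDAC8 transcript was not detected, so this transcript does not separate the groups as labelled. Of the melanocyte markers, every gene but MITF had groups that did not overlap, beside 29.1% of all genes. That shows a difference between the sets of libraries and does not test the HDAC8 label. All directions are those of the libraries labelled HDAC8. Whether the insert of the plasmid matches the annotated transcript, so that its reads would be counted as HDAC8, is not given in the sources used here. Another annotated gene, ENSG00000285547, overlaps HDAC8 exons on the same strand and has no separate count here.

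HDAC8 also had the widest error of the 9 genes, with a 95% interval of its fold change from 0.755 to 1.63. Its counts were the lowest of the 9, with a rounded expected count of 366 in the library that had fewest. The genes whose levels followed HDAC8 most closely over the 6 libraries were URI1, FBXO42 and CNTNAP3B, with root mean square differences of 0.021, 0.041 and 0.044 between centred log2 normalized counts. They were chosen for this likeness, and 100 of 14450 genes compared lay within 0.1 of HDAC8.

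Of the 3 complex-bound enzymes, HDAC3 was higher and HDAC2 lower in every library labelled HDAC8 than in every EV library, while HDAC1 overlapped, and none was called. HDAC3 (chromosome 5, 141620876 to 141636849, minus strand), the enzyme of the NCoR complex, had 901.8, 1129.1 and 986.1 normalized counts in EV and 1463.9, 1378.5 and 1147.8 in the libraries labelled HDAC8. The groups did not overlap, and HDAC8 3 lay just above the highest EV library. The log2 fold change of 0.40 (SE 0.21) had an adjusted p of 0.223 (DESeq2), and the interval of the fold change ran from 0.994 to 1.76.

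HDAC2 (chromosome 6, 113933028 to 114011308, minus strand) was the only one of the 9 with a negative log2 fold change. It had 3124.8, 2955.0 and 3032.2 normalized counts in EV and 2242.0, 2828.7 and 2612.4 in the libraries labelled HDAC8. All EV libraries were above all HDAC8 libraries, and HDAC8 1 was the lowest. The log2 fold change was -0.25 (SE 0.16, adjusted p = 0.385 by DESeq2), and -0.16 without HDAC8 1 (adjusted p = 0.536 by DESeq2). An antisense gene, HDAC2-AS2, overlaps its exons and held 0 to 27 counts per library.

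HDAC1 (chromosome 1, 32292083 to 32333635, plus strand), the paralog of HDAC2, had 5200.0, 5994.0 and 5573.8 normalized counts in EV and 6681.6, 5533.5 and 6080.7 in the libraries labelled HDAC8. HDAC8 2 lay among the EV libraries, and the log2 fold change was 0.13 (SE 0.14, adjusted p = 0.704 by DESeq2), or 0.05 without HDAC8 1. Its pseudogenes HDAC1P1 and HDAC1P2 held up to 24 and 96 counts, and with these added to HDAC1 the log2 fold change stayed at 0.13. HDAC1 and HDAC2 counts within the same library differed by a log2 ratio of 0.88 ± 0.14 in EV and 1.25 ± 0.31 in the libraries labelled HDAC8 (SD, n = 3), with overlapping groups (exact permutation p = 0.2, two-sided). The difference of 0.38 was 0.22 without HDAC8 1.

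**Figure D1:**
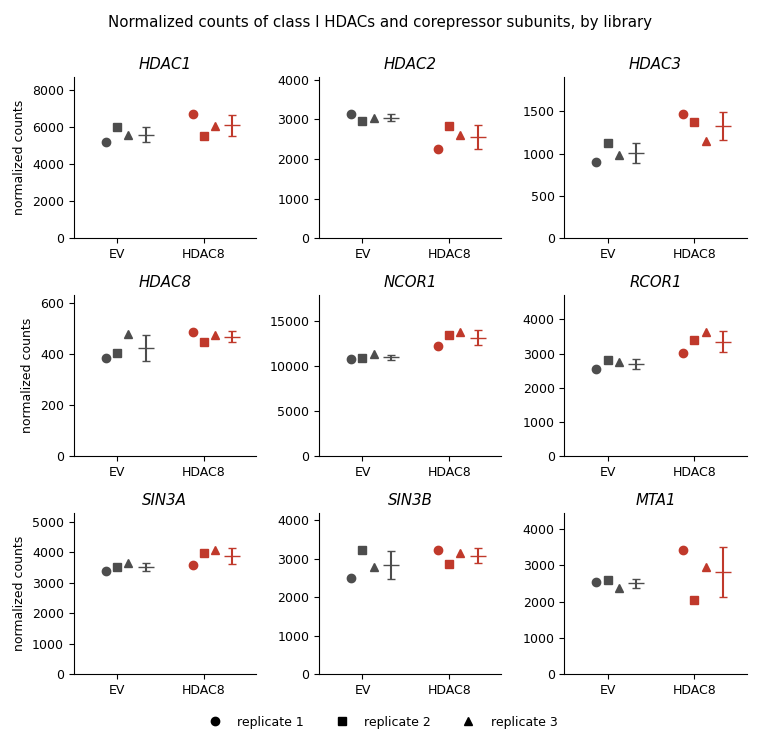
Normalized counts (y axes from 0, DESeq2 size factors) of the 9 genes in the 3 EV libraries (grey) and the 3 libraries labelled HDAC8 (red), with symbols for replicates and bars for mean ± SD. The groups are apart for HDAC2, HDAC3, NCOR1 and RCOR1 and overlap for the other genes, HDAC8 included.

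Among the corepressor genes, NCOR1 and RCOR1 had groups that did not overlap. NCOR1 (chromosome 17, 16029065 to 16218185, minus strand), which recruits HDAC3 to nuclear receptors, had 10775.4, 10867.2 and 11290.5 normalized counts in EV and 12186.6, 13452.2 and 13750.2 in the libraries labelled HDAC8. RCOR1 (chromosome 14, 102592649 to 102730561, plus strand), the CoREST scaffold that joins HDAC1 and HDAC2 to the demethylase KDM1A, had 2545.0, 2819.5 and 2759.3 in EV and 3017.6, 3401.2 and 3625.1. For both genes the lowest HDAC8 library was above the highest EV library, and HDAC8 1 was nearest to EV.

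The log2 fold change of NCOR1 was 0.26 (SE 0.12, unadjusted p = 0.0362, adjusted p = 0.169 by DESeq2). That of RCOR1 was 0.31 (SE 0.16, unadjusted p = 0.0497, adjusted p = 0.21 by DESeq2). The adjusted p-values depended on 1 library. Without HDAC8 1 the adjusted p was 0.0101 for NCOR1 (log2 fold change 0.31, DESeq2) and 0.0446 for RCOR1 (0.37), both still under the minimum fold change. The exons of NCOR1 overlap on the opposite strand those of TTC19, which held up to 3114 counts in a library, and of PIGL, with up to 777, while strand-specific counting is not stated. The pseudogene NCOR1P1 held up to 16 counts.

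SIN3A and SIN3B, paralogous scaffolds on which HDAC1 and HDAC2 assemble, had overlapping groups. SIN3A (chromosome 15, 75369379 to 75455842, minus strand) had 3395.4, 3528.4 and 3659.7 normalized counts in EV and 3588.8, 3961.4 and 4067.2 in the libraries labelled HDAC8, a log2 fold change of 0.13 (SE 0.14, adjusted p = 0.68 by DESeq2). SIN3B (chromosome 19, 16829398 to 16880353, plus strand) had 2507.2, 3220.2 and 2773.1 against 3221.9, 2852.3 and 3158.0, a log2 fold change of 0.12 (SE 0.16, adjusted p = 0.776 by DESeq2). HDAC8 1 lay inside the EV range for SIN3A, and EV 2 inside the HDAC8 range for SIN3B.

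MTA1 (chromosome 14, 105419820 to 105470729, plus strand), a NuRD subunit that binds and activates HDAC1, varied most of the 9 genes among the libraries labelled HDAC8. It had 2534.5, 2598.2 and 2361.3 normalized counts in EV and 3415.2, 2054.4 and 2945.6 in the libraries labelled HDAC8, with HDAC8 2 below and the others above all EV libraries. The coefficient of variation was 4.91% in EV and 24.6% in the other group (n = 3 each). The log2 fold change of 0.17 (SE 0.20, adjusted p = 0.722 by DESeq2) was -0.001 without HDAC8 1. TEX22 overlaps MTA1 on the same strand, with up to 165 counts.

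Over the 9 genes, the log2 fold changes ran from -0.25 to 0.40 with a median of 0.15, and 8 were positive. The median over all genes with an adjusted p was -0.003. Groups did not overlap for 4 of the 9 genes, 3 of them higher and 1 lower under the HDAC8 label. This held for 29.1% of all genes, and for 5054 of the 14440 that averaged at least 50 normalized counts. For HDAC1, HDAC2, NCOR1, SIN3A, SIN3B and MTA1 the 95% interval lay inside the fold change minimum in both directions, so a change of that size was outside the interval. The intervals of the other 3, HDAC3, HDAC8 and RCOR1, reached past it on the upper side.

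**Figure D2:**
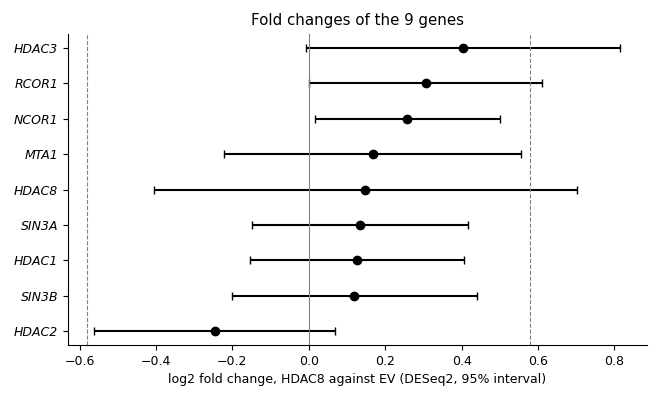
DESeq2 log2 fold changes of the 9 genes (x axis, libraries labelled HDAC8 against EV, 3 libraries each), with points for the estimate, bars for the 95% interval and dashed lines at the minimum of 0.58. HDAC3 is highest at 0.40 and HDAC2 lowest at -0.25, and the bars of HDAC3, HDAC8 and RCOR1 cross the upper dashed line.

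Levels of different genes were compared per kilobase of the Ensembl canonical transcript. HDAC1 led the 9 genes at 2638.9 ± 187.5 normalized counts per kilobase in EV and 2879.4 ± 271.1 in the libraries labelled HDAC8 (SD, n = 3). NCOR1, MTA1, HDAC3, SIN3B, SIN3A and RCOR1 followed in this order, and among these 6 genes the ranges of neighbours over the 6 libraries overlapped, while HDAC1 lay above all of them. HDAC2, at 311.9 ± 8.7 and 263.0 ± 30.5, and HDAC8, at 240.8 ± 28.5 and 266.8 ± 11.6, lay below them and overlapped each other. HDAC1 and NCOR1 also ranked first and second, and HDAC2 and HDAC8 last, with the union of all annotated exons as the length, where RCOR1 moved to rank 3 and HDAC3 to rank 7.

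HDAC1 made up 71.1% ± 0.54 of the transcripts of the 4 enzymes per length in EV and 70.2% ± 2.34 in the libraries labelled HDAC8 (SD, n = 3), a difference of -0.87 percentage points that was -1.47 without HDAC8 1. HDAC8 made up 6.32%, 5.84% and 7.33% in EV and 6.26%, 6.56% and 6.75% in the libraries labelled HDAC8, a difference in the mean of 0.03 percentage points (exact permutation p = 1, two-sided) that was 0.16 without HDAC8 1. A higher share of HDAC8 among class I transcripts in the libraries labelled HDAC8 was not detected beyond the spread of the libraries.

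HDAC3 took 14.0% ± 0.71 in EV and 16.8% ± 1.82 in the libraries labelled HDAC8, and HDAC2 took 8.44% ± 0.80 and 6.47% ± 1.16 (SD, n = 3). For both, the groups did not overlap, and the exact permutation p of 0.1 (two-sided, 0.2 adjusted over 4 shares) is the smallest that 3 against 3 libraries can give. The share of HDAC8 depends strongly on the length used, since its annotated exons add up to 22888 bases and its canonical transcript to 1754. With the longer value it was 1% in EV and 1.02% in the libraries labelled HDAC8. The shares of HDAC1 and HDAC2 also rest on length, with canonical transcripts of 2118 and 9737 bases. Which transcripts these cells use was not measured.

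**Figure D3:**
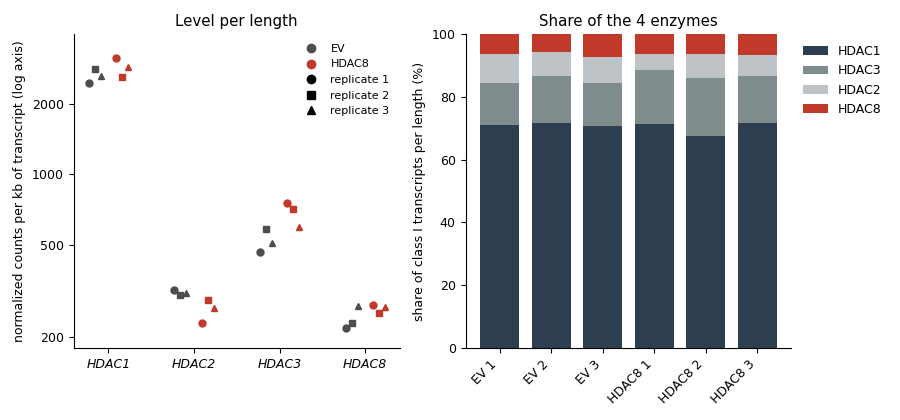
Left, normalized counts per kilobase of canonical transcript (log axis) of the 4 class I enzymes in each EV (grey) and HDAC8 (red) library. Right, the share of each enzyme in their sum per library, in percent: HDAC1 holds 67.5% to 71.7% and HDAC8 5.84% to 7.33% in all 6 libraries.

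Ratios of related genes within a library do not depend on the scaling between libraries, and 5 were compared. MTA1 to MTA2 had log2 ratios of -0.25, -0.40 and -0.41 in EV and -0.80, -1.39 and -0.81 in the libraries labelled HDAC8. Groups did not overlap, and the difference of -0.64 had an exact permutation p of 0.1 (two-sided, 0.25 adjusted over 5 ratios), the smallest possible.

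The other 4 ratios overlapped between groups. HDAC8 to HDAC3 had a mean log2 ratio of -1.25 ± 0.22 in EV and -1.50 ± 0.19 in the libraries labelled HDAC8 (SD, n = 3, exact permutation p = 0.2, two-sided). RCOR1 to RCOR3 differed by 0.60 on the log2 scale, with HDAC8 2 at 1.52 below EV 2 at 1.58 (exact permutation p = 0.2). SIN3A to SIN3B had 0.32 ± 0.17 and 0.33 ± 0.16 (exact permutation p = 0.9), the smallest difference of the 5 ratios, which was 0.10 without HDAC8 1.

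**Figure D4:**
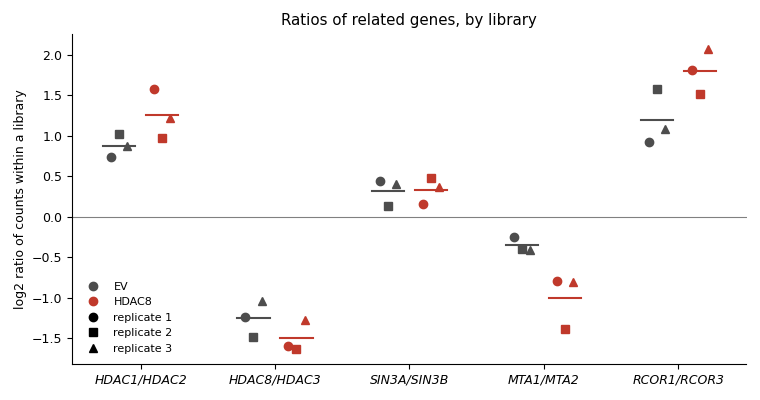
Log2 ratios of counts of related genes within each library (y axis), for EV (grey) and libraries labelled HDAC8 (red), with symbols for replicates and lines for group means. The groups are apart for MTA1/MTA2 and overlap for the other ratios.

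To see the 9 genes among their partners, 47 further genes of these complexes, of inositol phosphate synthesis and of HDAC8 substrates were examined, and all 47 had an adjusted p. Relative to EV, DESeq2 called 4 higher and 2 lower, or 12.8% of the 47, where 5.57% of all genes were higher and 5.44% lower. The median log2 fold change was 0.04. Of the 14440 genes with a mean of at least 50, 14.0% were called, 1065 higher and 959 lower. The same 6 genes were called by edgeR, by limma-voom, and without HDAC8 1. Groups did not overlap for 18 of the 47, 11 higher and 7 lower, beside 29.1% of all genes and 5054 of the 14440. The counts by complex that follow are of few genes each and are read against the same shares, 5.57% higher, 5.44% lower and 23.7% with an unadjusted p under 0.05.

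NuRD, which joins HDAC1 and HDAC2 to chromatin remodelling helicases and methyl-CpG binding proteins, had 3 of its 12 further genes called higher and 0 lower, beside 5.57% and 5.44% of all genes. CHD3, a helicase of the complex, had 5327.9, 5881.9 and 5708.8 normalized counts in EV and 13157.1, 9192.8 and 10369.0 in the libraries labelled HDAC8, a log2 fold change of 0.95 (SE 0.16). MTA2, the paralog of MTA1, had 3015.8, 3422.9 and 3141.6 in EV and 5936.0, 5376.8 and 5155.1, a log2 fold change of 0.78 (SE 0.14). MBD3, which bridges the enzymes and the helicase, had 3530.6, 5044.2 and 3829.2 against 8522.6, 6121.3 and 6866.9, and rose by 0.79 (SE 0.18) on the log2 scale.

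All HDAC8 libraries were above all EV libraries for these 3 genes, and DESeq2 adjusted p-values were 6.72e-08 (CHD3), 2.52e-06 (MTA2) and 0.000223 (MBD3). MTA3, the remaining paralog, had 1378.2 ± 192.2 and 1038.2 ± 230.2 (SD, n = 3, log2 fold change -0.41, or -0.25 without HDAC8 1, adjusted p = 0.282 by DESeq2). The other 8 genes of this list, among them the helicase CHD4 and the histone chaperones RBBP4 and RBBP7, were not called.

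Of the 13 further SIN3 genes, 0 were called by DESeq2, edgeR or limma-voom, and 1, BRMS1, had an unadjusted p under 0.05 with DESeq2. The largest values among those with a mean of at least 50 were 0.73 for BRMS1 and -1.01 for ING2, with adjusted p by DESeq2 of 0.184 and 0.25, and that of BRMS1 was 0.47 without HDAC8 1. Of the 8 further CoREST genes, ZMYM2, a zinc finger subunit, was called. It had 4991.3, 3395.8 and 4304.0 normalized counts in EV and 2432.7, 2736.5 and 2928.2 in the libraries labelled HDAC8 (log2 fold change -0.65, SE 0.18, adjusted p = 0.00396 by DESeq2). Without EV 1 the value was -0.52 and the adjusted p 0.104. RCOR3 had a log2 fold change of -0.30 (adjusted p = 0.514 by DESeq2), and RCOR2 had at most 50.1 normalized counts in a library, with a log2 fold change of 0.99 (SE 1.13).

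In the NCoR complex, 1 of the 4 further genes was called higher and 1 lower. CORO2A, an actin-binding coronin found in the complex, had 484.5, 722.9 and 418.7 normalized counts in EV and 202.7, 221.2 and 190.6 in the libraries labelled HDAC8, with no overlap (log2 fold change -1.40, SE 0.34, adjusted p = 0.000629 by DESeq2). GPS2, a core subunit, had 1369.5, 1411.2 and 1086.6 in EV and 1982.1, 1861.9 and 2185.5 (log2 fold change 0.64, SE 0.19, adjusted p = 0.00935 by DESeq2). The call of GPS2 was lost without EV 3 (0.53, adjusted p = 0.121) or without HDAC8 3 (0.58, adjusted p = 0.105).

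The MiDAC complex, a mitotic assembly of HDAC1 and HDAC2, had 0 of 3 further genes called. Its scaffold gene ELMSAN1 had 11893.2, 13267.5 and 11631.4 normalized counts in EV and 16740.8, 15738.1 and 16643.5 in the libraries labelled HDAC8, with an adjusted p of 0.00902 (DESeq2) at a log2 fold change of 0.42, under the minimum (adjusted p = 0.104 by edgeR, 0.0352 by limma-voom). DNTTIP1, its other core subunit, had a log2 fold change of 0.44 (adjusted p = 0.187 by DESeq2), and TRERF1, at 89.7 normalized counts or fewer, one of -1.43 (adjusted p = 0.388 by DESeq2). Enzymes that make the inositol phosphates bound by HDAC complexes were not called, with 0.54 for IPPK (adjusted p = 0.214 by DESeq2) and -0.49 for ITPK1 (adjusted p = 0.0834 by DESeq2).

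Among 6 genes of HDAC8 substrates and of SMC3 acetylation, 0 were called by DESeq2, edgeR or limma-voom, and 2 had an unadjusted p under 0.05 with DESeq2, SMC3 and ESCO1, beside 23.7% of all genes. SMC3, named here after its values were seen, had 4321.3, 3869.3 and 4607.4 normalized counts in EV and 5322.9, 6600.6 and 5650.6 in the libraries labelled HDAC8, a log2 fold change of 0.46 (SE 0.15, adjusted p = 0.024 by DESeq2) that stayed under the minimum. The adjusted p of SMC3 was 0.0752 by edgeR and 0.0696 by limma-voom. ESCO1, an acetyltransferase that acts on SMC3, had a log2 fold change of -0.50 (adjusted p = 0.15 by DESeq2), or -0.31 without HDAC8 1. ESRRA, an orphan nuclear receptor, had the highest value of this list at 0.51 (adjusted p = 0.325 by DESeq2), which rested on HDAC8 1 and was 0.09 without it, under the 0.52 of SMC3.

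**Figure D5:**
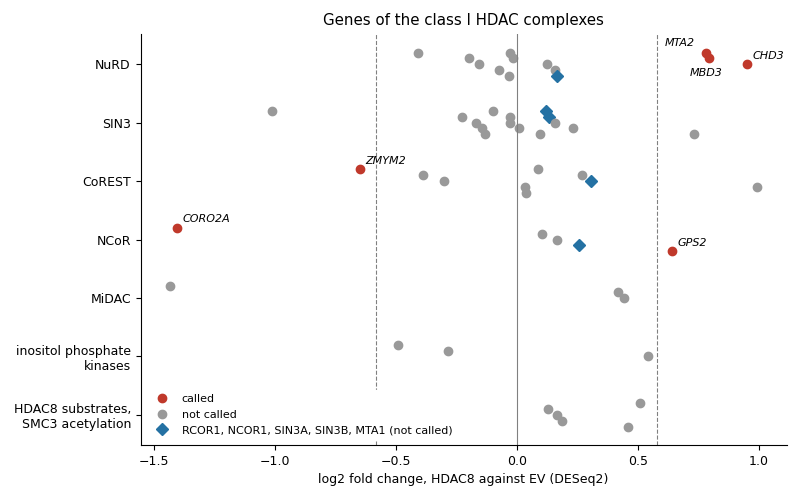
DESeq2 log2 fold changes (x axis, libraries labelled HDAC8 against EV, 3 libraries each) of the genes of each complex or list, with called genes in red and named, and dashed lines at the minimum of 0.58 (RBBP4 and RBBP7 appear in NuRD and SIN3). CHD3, MTA2, MBD3 and GPS2 lie above it and CORO2A and ZMYM2 below its negative, while the blue diamonds of the 5 corepressor genes lie between 0.12 and 0.31.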

How the data were processed

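RNA was extracted from WM164 cells (the labels and the methods of the study name different kits), sequenced from both ends and processed by the authors in order through Trimmomatic, STAR and RSEM. What was deposited per gene is an expected count, not scaled between libraries. Build, annotation and strand-specific counting are not given in the sources used here. The 9 genes and the lists were chosen with earlier results of these data known.

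Expected counts were rounded, and 26162 genes with a total of at least 10 were fitted with DESeq2 1.42.0 (R 4.3.3, two-sided Wald test), which gave 5141 no adjusted p. Normalized counts are counts over DESeq2 size factors. The 95% intervals come from the standard error. Positions and lengths are from GENCODE release 44, where 56558 of the 60504 identifiers were found, and need not match the build of the authors. Named genes were the 9, their paralogs, called partner genes, the extremes of each list (mean of at least 50) and the 3 most like HDAC8. Shares and ratios were compared by exact permutation (scipy 1.17.1). Alternatives were edgeR 4.0.16, limma 3.58.1 (voom), other scalings, filters and lengths, pseudogene counts added, no mitochondrial genes, a replicate block and each library left out. The default fits of DESeq2, edgeR and limma-voom were tested on simulated data, and the other alternatives were not. Some partner genes are not reported here, and lists and ratios are counted without them. Pairs of libraries in a group differed by more than sampling noise.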

Additional observations from a re-analysis of the deposited data

How the results depend on the processing

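None of the 9 genes was called in any of 15 alternatives, and the direction of 8 of them was the same in all. MTA1 was the exception, with log2 fold changes from -0.001 to 0.353 when libraries were left out in turn. Of 31 named genes, 28 kept direction and call in every alternative that gave an adjusted p. The calls of GPS2 (0.526 without EV replicate 3, 0.577 without HDAC8 replicate 3) and ZMYM2 (-0.515 without EV replicate 1) were lost, and the cause was not tested. Partner genes called lower ran from 1 to 2 and those called higher from 3 to 4 across the fits that left out one library. Over all genes, the test against the fold change minimum left 292 higher and 291 lower by its own construction, and leaving out one library gave 877 to 1218 higher and 746 (without EV replicate 3) to 1378 lower.

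Across values that each left out one library, the difference in the share of HDAC1 ran from -1.629 to 0.478 percentage points and that of HDAC8 from -0.302 to 0.441, and the SIN3A to SIN3B log2 ratio from -0.087 to 0.096, so none of these has a direction. Those of HDAC2, HDAC3 and the other 4 ratios kept theirs. Libraries were not treated as paired by number, since the correlations of their deviations from group means were -0.0273, -0.0663 and 0.0399 over genes. A fit with the replicate block gave 1075 higher and 1078 lower genes, and the calls of the 9 genes and their partners were the same. HDAC8 had the lowest counts of the 9, with a rounded expected count of 366 in one library.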
